A study of Homo sapiens with 4 samples.

Results

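Vimentin (VIM) and the nuclear lamins LMNA, LMNB1 and LMNB2 were examined as RNAs crosslinked in a PDCD4 immunoprecipitation. Every crosslink site whose gene label held exactly one of these 4 symbols was taken, whatever its score, which gave 329 of the 158922 sites listed for PDCD4 and 62 of the 111361 sites listed for the isotype control IgG. The members are 4 of 14416 genes with a site in either list. They were chosen by their family and with their summed scores in both lists known, so the ratios between PDCD4 and IgG are given as a description.

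The sites come from iCLIP, in which RNA is fixed to protein by UV light, the protein is immunoprecipitated, and the start of each cDNA marks the crosslinked nucleotide. The cells were MCF10A, an established untransformed breast epithelial line, labelled as wild type and grown in medium with horse serum, epidermal growth factor, insulin, hydrocortisone and cholera toxin. Lysates were precipitated with an antibody to PDCD4, an RNA-binding tumour suppressor, or with IgG, with 2 replicates of each, and no sample differed in genotype or treatment. The deposited lists merge the replicates of each antibody, so there is 1 value per antibody, no spread between replicates and no test, and all intervals below are 95% intervals for counting error only.

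Vimentin and the lamins belong to the intermediate filament family. Each of these proteins has a short head, a long coiled-coil rod through which molecules pair, and a tail. Vimentin forms filaments in the cytoplasm and is best known from mesenchymal cells, although cultured epithelial lines also make it. The lamins form the meshwork under the inner nuclear membrane. LMNA encodes lamin A and, by a different end of its transcript, lamin C, whereas LMNB1 and LMNB2 each encode a B-type lamin. The genes share some of their exon boundaries within the rod, so that parts of VIM can be set against the same parts of the lamins.

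The position with the highest count of the 4 genes lay in VIM exon 7 and is shown first, together with the same position of the B-type lamin genes. Sequences are of the sense strand, 5′ to 3′, from GRCh38, and the capital marks the crosslinked base, or in LMNB1 and LMNB2 the base aligned with it. The windows of 30 nt are chr10:17235258-17235287 on the plus strand for VIM, chr5:126819011-126819040 on the plus strand for LMNB1 and chr19:2434397-2434426 on the minus strand for LMNB2. All 3 windows are in coding sequence of the rod. The VIM base carried 37 PDCD4 cDNAs, and the bases of LMNB1 and LMNB2 carried no listed site.
VIM exon 7: ggatgagattcagaaTatgaaggaggaaat
LMNB1 exon 6: gagagagatggcggaAataagggatcaaat
LMNB2 exon 7: gcaggagatgacggaGatgcgggacgtgat
Of these 30 bases, LMNB1 and LMNB2 shared 18 each with VIM.

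The other sites shown are those with the next highest counts in VIM and the exonic site with the highest count in each B-type lamin. In VIM they were 13 cDNAs in exon 2 (chr10:17229758-17229787) and 12 cDNAs in exon 7 (chr10:17235228-17235257), both coding. In LMNB1 the highest exonic site had 4 cDNAs and lay in the 5′UTR, in exon 1 (chr5:126777253-126777282). In LMNB2 it had 6 cDNAs and lay in the 3′UTR, in exon 12 (chr19:2429757-2429786, minus strand). Other LMNB2 sites, in the coding sequence and the 3′UTR, also had 6 cDNAs, and intronic sites reached 4 cDNAs in LMNB1 and 7 in LMNB2.
VIM exon 2: ccgcttcgccaactaCatcgacaaggtgcg
VIM exon 7, second site: taactaccaagacacTattggccgcctgca
LMNB1 exon 1: gtgtgtgtgttttctTacaaagggtatttc
LMNB2 exon 12: ggatatttattttttTacattggtcagtac

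VIM (ENSG00000026025, chr10:17228241-17237593, plus strand) had 597 PDCD4 cDNAs at 165 sites and 13 IgG cDNAs at 5 sites. Per 10000 cDNAs of each list, these sums were 14.6 for PDCD4 and 0.471 for IgG, a log2 ratio of 4.85 (4.08 to 5.61) after 1 cDNA was added to each sum. VIM was 26th of 12932 genes by its PDCD4 sum and 5274th of 11846 genes by its IgG sum. It thus stood near the top of one list and in the middle of the other.

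LMNA (ENSG00000160789, chr1:156082573-156140081, plus strand) had 189 PDCD4 cDNAs at 64 sites and 44 IgG cDNAs at 17 sites, or 4.62 and 1.59 per 10000. Its log2 ratio was 1.51 (1.04 to 1.98). LMNB2 (ENSG00000176619, chr19:2427638-2456959, minus strand) had 229 PDCD4 cDNAs at 74 sites and 82 IgG cDNAs at 23 sites, or 5.59 and 2.97 per 10000, with a log2 ratio of 0.90 (0.54 to 1.26). LMNB1 (ENSG00000113368, chr5:126776623-126837020, plus strand) had 63 PDCD4 cDNAs at 26 sites and 36 IgG cDNAs at 17 sites, or 1.54 and 1.30 per 10000. Its log2 ratio was 0.22, with an interval from -0.36 to 0.81 that includes 0.

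VIM and LMNA, 2 of the 4 members, had a log2 ratio over 1, and LMNB1 and LMNB2 did not. Among all 7305 genes with at least 20 cDNAs over both lists, 1197 had a log2 ratio over 1 (16.4%), and the median was -0.10. VIM ranked 28th, LMNA 672nd, LMNB2 1334th and LMNB1 2770th of these genes by ratio. Nothing is read from the count of 2, since the members were chosen with these sums known.

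The genes were compared with each other per kb of exon, since their transcripts differ in length. The exonic PDCD4 density, in cDNAs per kb per 10000 cDNAs of the list, was 6.70 (6.17 to 7.27) in VIM, 1.18 (1.00 to 1.39) in LMNA, 1.04 (0.90 to 1.19) in LMNB2 and 0.372 (0.27 to 0.50) in LMNB1. The intervals of LMNA and LMNB2 overlapped, and those of VIM and LMNB1 stood apart from all others. The exonic IgG density was 0.219 (0.12 to 0.37) in VIM, 0.228 (0.14 to 0.35) in LMNA, 0.213 (0.12 to 0.34) in LMNB1 and 0.391 (0.29 to 0.52) in LMNB2. The 4 intervals thus all overlapped in the IgG list, whereas they spread out in the PDCD4 list. In exons alone the log2 ratios were 4.83 (4.07 to 5.60) for VIM, 2.32 (1.66 to 2.97) for LMNA, 1.39 (0.95 to 1.83) for LMNB2 and 0.75 (-0.03 to 1.54) for LMNB1. Abundance of these RNAs in the cells was not analysed here, and more RNA and more crosslinking per RNA cannot be told apart from these sums.

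**Figure D1:**
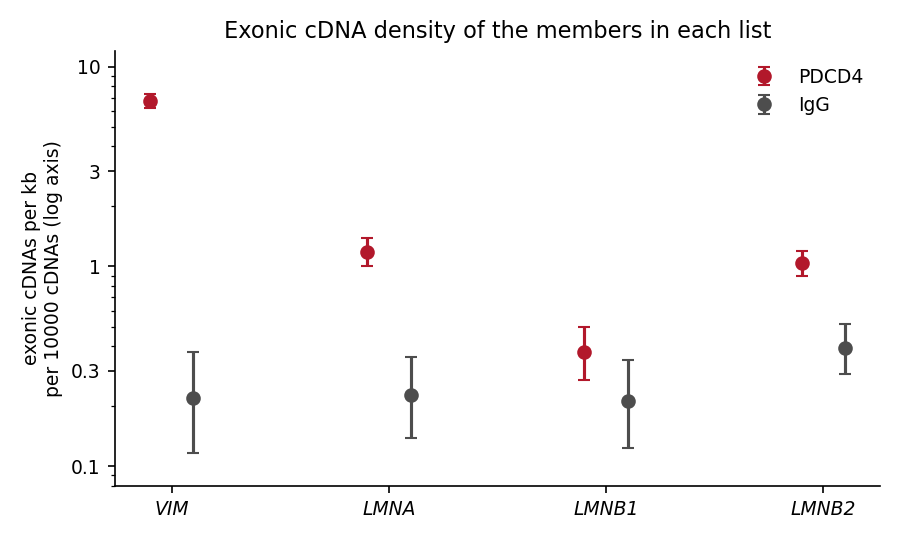
Exonic cDNAs per kb of transcript and per 10000 cDNAs of the list (log axis) for the 4 genes, in the PDCD4 list (red) and the IgG list (grey), with 95% Poisson intervals. The PDCD4 values run from 0.372 in LMNB1 to 6.70 in VIM, and the IgG values from 0.213 in LMNB1 to 0.391 in LMNB2.

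The counts per site also differed among the members. In VIM the PDCD4 scores ran from 1 to 37 with a median of 3, and 23 sites exceeded the score of 5 that the study's methods use as a filter. These 23 sites held 228 of the 597 cDNAs, and 4 of them had more than 10. The PDCD4 scores reached 7 in LMNA, with 2 sites over 5, reached 7 in LMNB2, with 5 sites over 5, and reached 4 in LMNB1, with none over 5. No IgG site of any member exceeded 5. Sites were listed only if they met the false discovery rate set by the authors, so a position that is not listed is not a measured count of 0. How far the filter reached down differed between genes and lists. PDCD4 sites with a score of 1 numbered 32 in VIM, 9 in LMNA, 1 in LMNB1 and 11 in LMNB2. In the IgG list VIM had 1 site with a score of 1, whereas none of the 23 sites of LMNB2 was below 3.

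According to the methods, positions crosslinked with IgG were taken out of the PDCD4 data ahead of peak calling. The 2 lists share 721 positions, of which 1 is in LMNA, 2 are in LMNB2 and none is in VIM or LMNB1. The shared positions all lie in 3′UTRs. The LMNA position had 2 PDCD4 and 4 IgG cDNAs, and the LMNB2 positions had 3 PDCD4 cDNAs each and 5 and 3 IgG cDNAs.

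Where the cDNAs lay within the genes was not used to choose them. Each site was placed on 1 transcript per gene, ENST00000544301.7 for VIM (10 exons, 2154 nt), ENST00000368300.9 for LMNA (12 exons, 3178 nt, lamin A), ENST00000261366.10 for LMNB1 (11 exons, 2890 nt) and ENST00000325327.4 for LMNB2 (12 exons, 4634 nt). The chosen VIM transcript starts with an exon that is wholly 5′UTR, so its exon numbers run 1 ahead of the coding exons. Sites labelled with the gene but outside the exons of that transcript are called intronic. These include sites beyond the ends of the transcript, such as LMNB2 sites with 3 PDCD4 cDNAs past its 3′ end and 2 just ahead of its start.

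In VIM, 74.5% of the PDCD4 cDNAs (70.9 to 77.9%) were in coding sequence, 445 cDNAs at 109 sites. A further 20.9% (17.9 to 24.4%) were in the 3′UTR, 3.52% in the 5′UTR and 1.01% in introns. LMNA also had most of its PDCD4 cDNAs in coding sequence, 56.6% (49.5 to 63.5%), followed by introns with 18.5%, the 3′UTR with 13.8% and the 5′UTR with 11.1%. The B-type lamins had few coding cDNAs, with 12.7% (6.58 to 23.1%) in LMNB1 and 14.8% (10.8 to 20.0%) in LMNB2. LMNB2 had 70.3% (64.1 to 75.8%) in its 3′UTR, 161 cDNAs at 55 sites, and LMNB1 had 38.1% in the 3′UTR, 30.2% in introns and 19.0% in the 5′UTR. Over all coding genes of the PDCD4 list, 22.4% of cDNAs were coding, 20.0% were in 3′UTRs and 55.8% were intronic. The coding shares of VIM and LMNA lay above this and those of LMNB1 and LMNB2 below or around it, with the interval of LMNB1 including 22.4%. These shares include introns, which held 55.8% over all coding genes but 1.01% in VIM and 30.2% in LMNB1. They are thus not a comparison among exonic cDNAs. Over all coding genes the coding share exceeded that of 3′UTRs, whereas in LMNB1 and LMNB2 the 3′UTR share was larger.

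The regions differ in length, and the 3′UTR has 325 nt in VIM, 978 nt in LMNA, 759 nt in LMNB1 and 2748 nt in LMNB2. Per kb, VIM had 318 PDCD4 cDNAs in coding sequence against 385 in the 3′UTR. LMNA had 53.7 coding and 26.6 3′UTR cDNAs per kb, LMNB1 had 4.55 and 31.6, and LMNB2 had 18.3 and 58.6. By density, then, the 3′UTR exceeded coding sequence in VIM, LMNB1 and LMNB2, and coding sequence exceeded the 3′UTR in LMNA. In VIM this order rests on which coding positions are counted, as given below.

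The IgG cDNAs of the lamins were mostly intronic or in 3′UTRs. Introns held 54.5% in LMNA, 52.8% in LMNB1 and 39.0% in LMNB2, and 3′UTRs held 31.8%, 36.1% and 56.1%. In VIM, 9 of the 13 IgG cDNAs were coding and 4 were in the 3′UTR, a share too thin to set against the PDCD4 value (69.2%, 42.4 to 87.3%). None of the members had an IgG site in the 5′UTR, where PDCD4 had 21 cDNAs each in VIM and LMNA, 12 in LMNB1 and 2 in LMNB2. Over all coding genes the 5′UTR held 0.95% of the IgG cDNAs and 1.83% of the PDCD4 cDNAs. With 175 IgG cDNAs in the 4 genes together, an absence from so small a region says little. In LMNB1 and LMNB2 the intronic sums were the same in both lists before scaling, 19 cDNAs in LMNB1 and 32 in LMNB2, so the larger PDCD4 sums of these genes lay in exons.

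**Figure D2:**
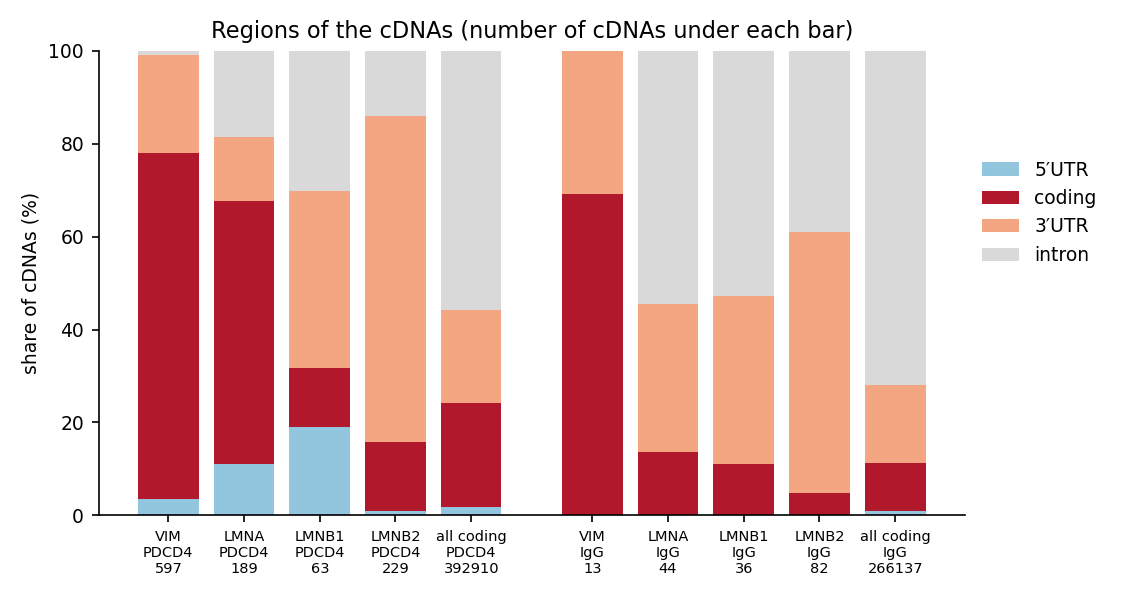
Share of cDNAs (%) in the 5′UTR, coding sequence, 3′UTR and introns of the 4 genes and of all coding genes, for the PDCD4 list (left) and the IgG list (right), with the number of cDNAs under each bar. Coding sequence holds 74.5% of the PDCD4 cDNAs of VIM and 56.6% of those of LMNA, against 12.7% in LMNB1 and 14.8% in LMNB2.

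Within VIM the PDCD4 cDNAs were unevenly spread over exons. Exon 7 had 192 cDNAs at 38 sites, 32.5% of the exonic cDNAs (28.8 to 36.4%) on 10.3% of the exonic length, or 86.9 per 100 nt (75 to 100). Exon 10, which holds the end of the coding sequence and the 3′UTR, had 158 cDNAs at 56 sites (43.4 per 100 nt), and exon 2, which holds the start codon, had 148 at 39 sites (20.8 per 100 nt). Exon 7 exceeded every other exon of VIM in density, and no interval of another exon reached its lower bound.

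The smaller exons held less. Exon 5 had 51 cDNAs (31.5 per 100 nt), exon 9 had 19, exon 6 had 17 and exon 4 had 6. Exon 1, which is 5′UTR, and the short exons 3 and 8, of 61 and 44 nt, had no listed site. The 5 IgG sites of VIM lay in exon 2, with 4, 4 and 1 cDNAs, and in exon 10, with 2 and 2, and none was in exon 7.

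**Figure D3:**
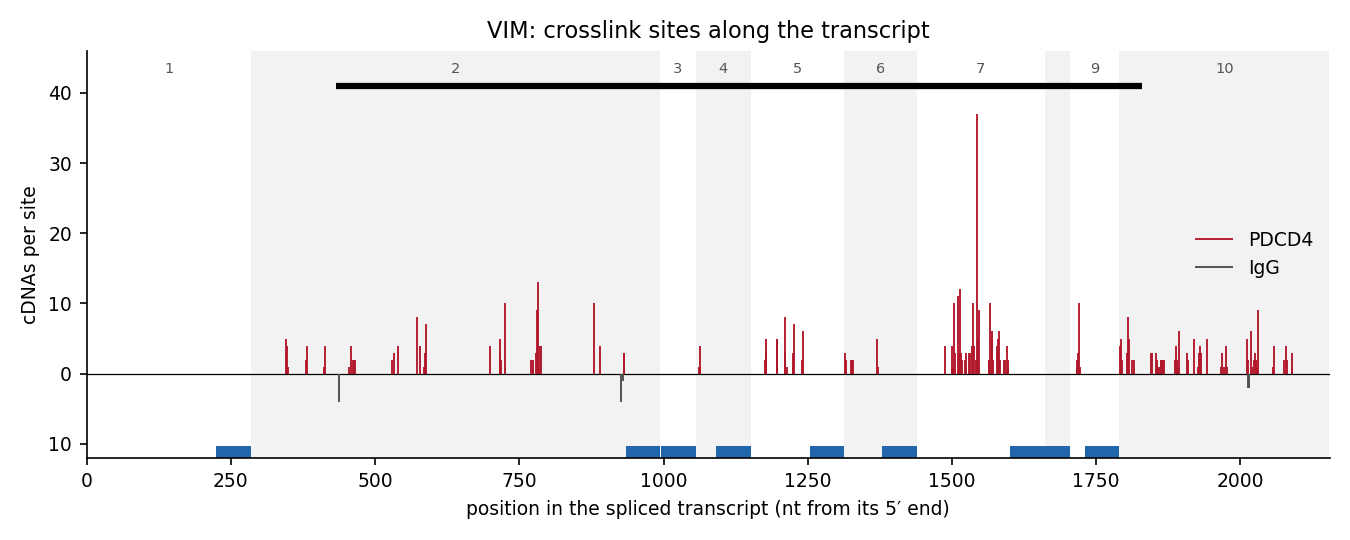
cDNAs per crosslink site (y axis) along the spliced VIM transcript (x axis, nt from its 5′ end), PDCD4 upwards in red and IgG downwards in grey. Grey and white bands are exons with their numbers (exon 8, of 44 nt, is not numbered), the black bar is the coding sequence, and the blue marks are the last 60 nt of each exon before an intron, where VIM has no listed site. The site with 37 cDNAs is in exon 7.

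The densest 50 nt of the VIM exons were also in exon 7, from chr10:17235229 to chr10:17235276, with 133 cDNAs at 22 sites, 22.5% of the exonic cDNAs. They span codons 357 to 372, and the site with 37 cDNAs lies in codon 371. All PDCD4 sites of exon 7 fell between nucleotides 49 and 159 of its 221. The sites with 13 and 9 cDNAs in exon 2 both lie in codon 117, near the start of the rod.

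Exon 7 of VIM could be set directly against the lamins. It aligns over its whole length with exon 6 of LMNA, exon 6 of LMNB1 and exon 7 of LMNB2, each of 221 nt and 74 codons without a gap, and shares 52.9%, 51.6% and 59.3% of its nucleotides with them. This exon held 192 PDCD4 cDNAs in VIM, 24 at 8 sites in LMNA, and no listed PDCD4 site in LMNB1 or LMNB2. Leaving out the ends of exons treated below, its upper bound was 2.29 per 100 nt in LMNB1 and in LMNB2. On such positions the whole coding sequence had 0.69 per 100 nt in LMNB1 and 2.83 in LMNB2. The absence in LMNB1 thus does not set this exon apart from the rest of its coding sequence. In LMNA the 24 cDNAs made this exon the one with the highest count between the first and the last, at 10.9 per 100 nt (6.96 to 16.2). Exon 6 of LMNA also held the densest 50 nt of that gene, 16 cDNAs at 5 sites. IgG had 4 cDNAs at 1 site in this exon of LMNB2 and none in the other genes.

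The positions within the exon differed between VIM and LMNA. The LMNA sites lay at nucleotides 9 to 31, with 16 cDNAs, and 154 to 159, with 8 cDNAs, and the stretch between them was that in which most VIM cDNAs fell. The VIM exon is richer in pyrimidines, with 42.1% against 37.6% in LMNA, 36.2% in LMNB1 and 35.3% in LMNB2. It is 20.4% T, as is that of LMNB1, against 11.8% in LMNA and 12.2% in LMNB2. Whether base composition has a part in the counts was not tested.

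**Figure D4:**
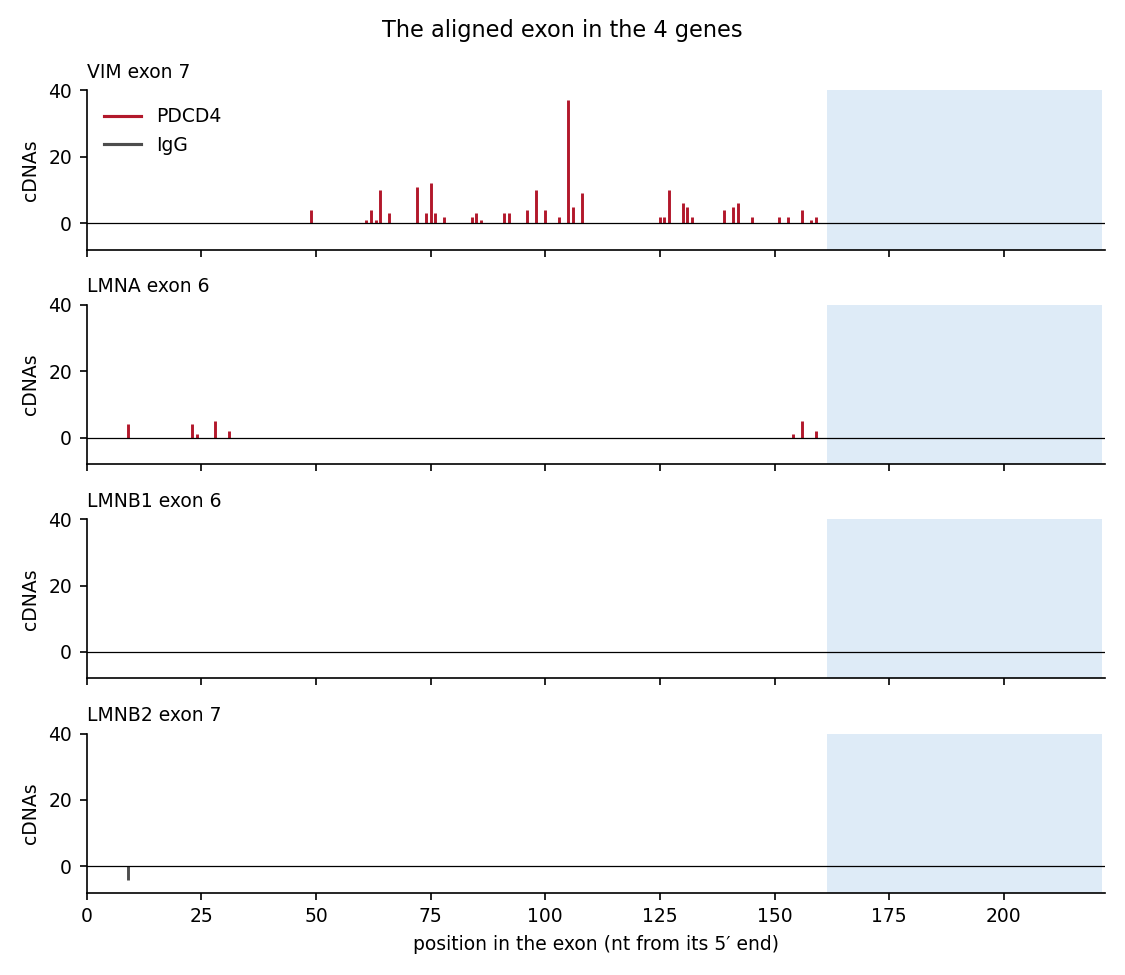
cDNAs per crosslink site along the 221 nt of the aligned rod exon (x axis, nt from the 5′ end of the exon) in VIM, LMNA, LMNB1 and LMNB2, PDCD4 upwards in red and IgG downwards in grey, on the same y axis. The shaded part is the last 60 nt of the exon. VIM has 38 PDCD4 sites, all between 49 and 159. LMNA has 8, at 9 to 31 and 154 to 159, and LMNB1 and LMNB2 have none listed. LMNB1 has 8 PDCD4 cDNAs in its whole coding sequence.

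The last 60 nt of exons that precede an intron were nearly empty of cDNA starts. In VIM these stretches make up 29.3% of the positions of the exons before the last, and 0 of 433 PDCD4 cDNAs in those exons began there (0 of 591 over all exons). In LMNA 6 of 122 cDNAs began there (4.92% on 30.3% of positions), and in LMNB1 and LMNB2 none of 18 and 32 did. Over all genes the share was 4.90% for PDCD4 and 6.94% for IgG, on 36.3% of positions. The PDCD4 share of LMNA was near the value over all genes, whereas the upper bound for VIM, 0.88%, lay below it. The intervals of LMNB1 (up to 17.6%) and LMNB2 (up to 10.7%) included it. A cDNA that starts in such a stretch runs across a splice junction in mature mRNA, and how the authors' mapping treated such reads is not given in the sources used here. The short VIM exons 3 and 8 consist almost wholly of such positions, with 1 and 0 nt outside them, so the absence of sites there says little about them.

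Counting only positions outside these stretches, VIM exon 7 had 119 PDCD4 cDNAs per 100 nt (103 to 137), exon 9 had 73.1 (44 to 114), exon 5 had 50 (37.2 to 65.7) and exon 10 had 43.4. Exon 7 remained the densest exon, but its interval overlapped that of exon 9, which rests on 26 nt. On the same positions the coding sequence of VIM had 47.6 cDNAs per 100 nt and the 3′UTR 38.5, the reverse of the order over all positions. LMNA kept more in coding sequence (7.58 against 2.66), and LMNB1 (0.69 against 3.16) and LMNB2 (2.83 against 5.86) kept more in the 3′UTR.

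Along the coding sequence, 29.9% of the coding PDCD4 cDNAs of VIM (25.8 to 34.3%) were in the first 50% of codons. Exon 7 lies wholly in the remaining codons. Without it the share was 52.6% (46.4 to 58.6%), still below the 59.4% of the remaining coding length that these codons then make up. LMNA had 66.4% (57.0 to 74.6%) in the first 50% of its codons, LMNB2 had 30 of 34 cDNAs (88.2%) and LMNB1 had 6 of 8. The 3 lamins together had 71.8% (64.1 to 78.4%), and all coding genes had 50.1%. The interval for VIM lay below this value and that for the lamins above it.

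The conserved rod was taken from the first to the last run of at least 4 residues shared by all 4 proteins, codons 109 to 408 in VIM, 37 to 384 in LMNA, 38 to 385 in LMNB1 and 52 to 399 in LMNB2. VIM was 31.1% to 34.0% identical to the lamins, which were 56.0% to 60.9% identical to each other. The rod held 73.3% of the coding PDCD4 cDNAs of VIM (69.0 to 77.2%) on 64.4% of its codons, and 65.8% of those of the lamins (57.8 to 72.9%) on 55.8% of their codons. Without exon 7 the rod of VIM held 53.0% of the coding cDNAs (46.8 to 59.0%) on 58.1% of the remaining coding length, so the share of the rod was no longer above its length. Per 100 nt over all positions, VIM had 20.7 cDNAs in the head, 36.2 in the rod and 29.9 in the tail. LMNA had 9.26, 6.61 and 3.33. These densities count the nearly empty ends of exons before introns, which lie in the rods and tails but not in these heads. The LMNA head held 10 cDNAs, and no order of head and rod is read for LMNA.

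**Figure D5:**
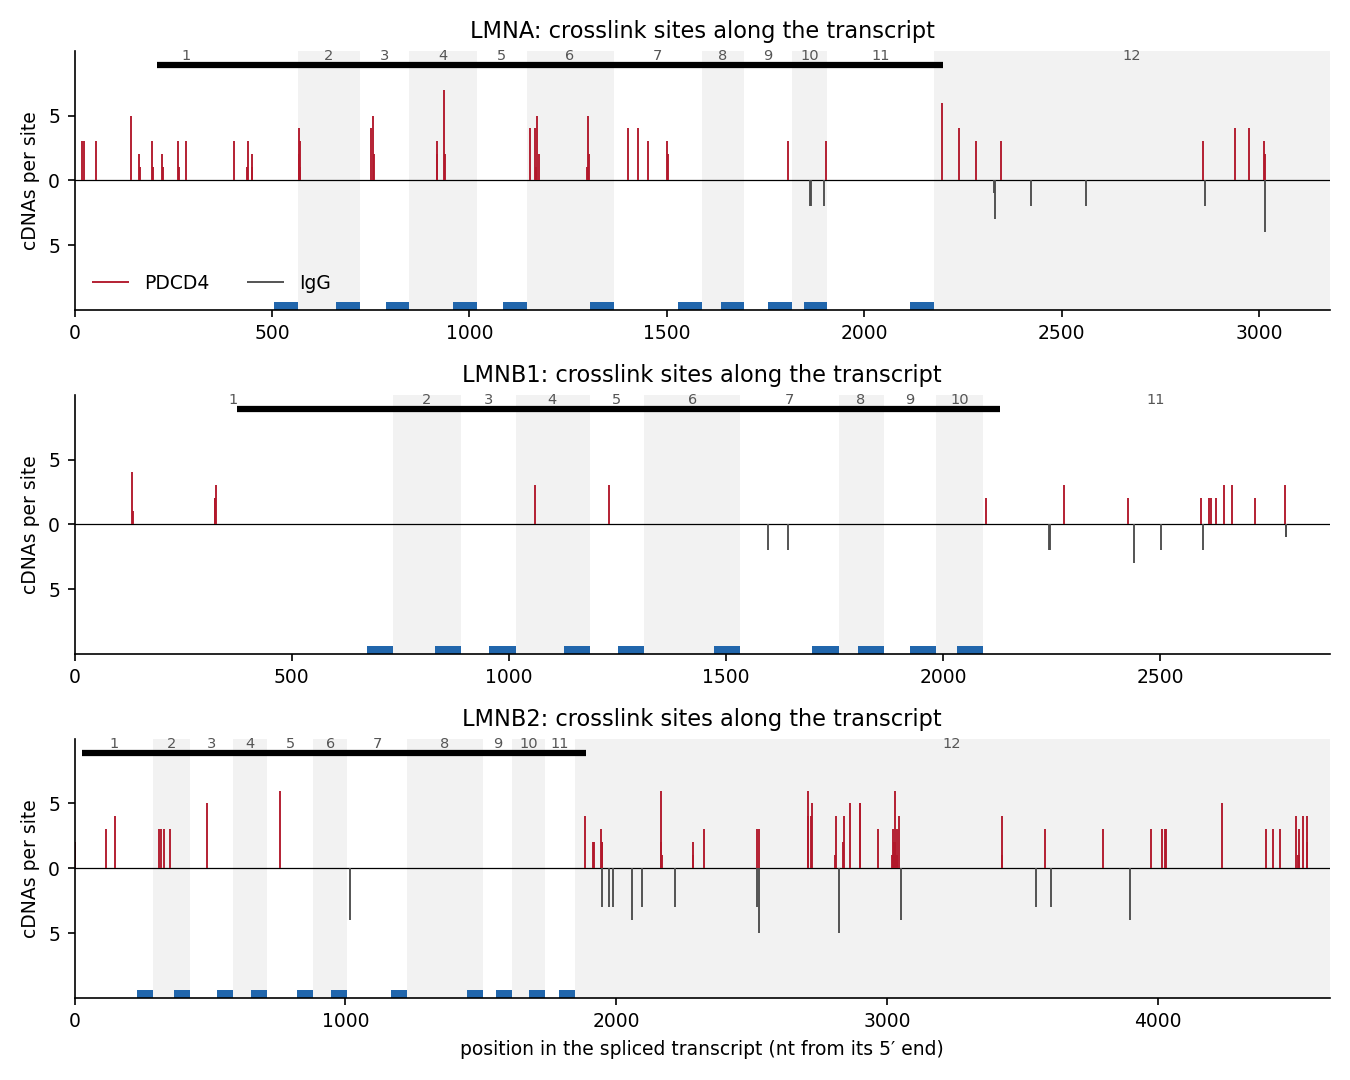
cDNAs per crosslink site along the spliced transcripts of LMNA, LMNB1 and LMNB2 (x axis, nt from the 5′ end), PDCD4 upwards in red and IgG downwards in grey, with exons as bands, the coding sequence as a black bar and the last 60 nt before introns as blue marks. PDCD4 sites of LMNA lie mostly in exons 1 to 7 (none in exon 5) and 12, and those of LMNB2 are mostly in the 3′UTR in exon 12, which holds 165 of its 197 exonic cDNAs.

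In LMNA, exon 1 held 41 PDCD4 cDNAs at 18 sites and exons 2, 3, 4, 6 and 7 held 10, 11, 14, 24 and 16. Exons 9 and 10 held 3 each, and exons 5, 8 and 11 held none. Exons 1 to 10, which lamin A and lamin C share, had 122 cDNAs at 44 sites (6.40 per 100 nt). Of the exons used by lamin A alone, exon 11 had no listed site in either list, and exon 12, mostly 3′UTR, had 32 PDCD4 cDNAs at 9 sites and 14 IgG cDNAs at 6 sites. The 123 nt found only in the lamin C transcript had none. The 6 coding IgG cDNAs of LMNA were all in exon 10, whose end is spliced in the lamin A transcript and read through in that of lamin C.

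In the B-type lamins most exonic PDCD4 cDNAs were in the last exon, 26 of 44 in LMNB1 and 165 of 197 in LMNB2. The IgG cDNAs showed the same placement, with 13 of 17 and 46 of 50. Ahead of the last exon, LMNB1 had 12 PDCD4 cDNAs in exon 1, all of them in the 5′UTR, and 3 each in exons 4 and 5. LMNB2 had 9 in exon 1, 12 in exon 2, 5 in exon 3 and 6 in exon 5, and none in exons 6 to 11. In both genes no PDCD4 site was listed in the coding exons after the fifth until the last exon, a stretch that includes the exon aligned with VIM exon 7. With 8 coding PDCD4 cDNAs in LMNB1, the absence says little for that gene.

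Bases at the crosslinked positions were mostly pyrimidines, as in the lists as a whole (73.1% of PDCD4 and 74.4% of IgG sites). The shares at PDCD4 sites were 69.1% in VIM (61.7 to 75.6%), 76.6% in LMNA, 73.1% in LMNB1 and 78.4% in LMNB2. Pyrimidines make up 48.3% of VIM exons and 46.4% to 47.1% of those of the lamins. Uridine was at 37.0% of VIM sites (30 to 44.6%), below the 46.7% of all PDCD4 sites, and at 54.1% of LMNB2 sites (42.8 to 64.9%). Most VIM sites were coding (66.1%), whereas 55.8% of the PDCD4 cDNAs over all coding genes were intronic. The uridine shares of VIM and of all sites are thus from unlike regions. Within codons, 49.0% of the coding PDCD4 cDNAs of VIM were at the last base, 33.3% at the first and 17.8% at the middle base, against 35.7%, 37.5% and 26.9% over all genes. The site with 37 cDNAs is at a last base. In VIM the last base of codons is a pyrimidine in 53.4% of codons, against 41.0% for the first and 45.7% for the middle base.

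Most member sites could be told from other genes by sequence. The 30 nt that start at the site were found in a transcript of another gene for 3 of 165 VIM sites (15 cDNAs), 2 of 64 LMNA sites, 1 of 26 LMNB1 sites and 1 of 74 LMNB2 sites in the PDCD4 list. No member site carried the label of a second gene.

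Related genes gave a background to these values. Of 11 other intermediate filament genes outside the keratins, such as desmin, GFAP and the neurofilaments, 2 had any site: SYNM, with 2 PDCD4 cDNAs, and BFSP1, with 2 IgG cDNAs. Neither reached 20 cDNAs. VIM was thus the sole cytoplasmic member of this list with a PDCD4 sum above 2.

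All 15 genes for partners of the lamina and the nuclear envelope had a site in either list, 14 for PDCD4 and 15 for IgG. Of the 14416 genes with a site in either list, 12932 had one for PDCD4 and 11846 for IgG. Among the partners, 12 genes reached 20 cDNAs. Of these 12, the log2 ratio was over 1 in LEMD2 (1.30, 50 PDCD4 and 13 IgG cDNAs), which encodes an inner nuclear membrane protein, and in TPR (1.26, 127 and 35), a nuclear pore basket protein. It was under -1 in SYNE1 (-1.05, 9 and 13), a giant linker of nucleus and cytoskeleton, and between these values in the other 9. Of all 7305 genes, 16.4% were over 1 and 16.1% under -1. The list had a median of -0.03, against -0.10 over all genes. SUN1, which spans the inner nuclear membrane and had the largest sum, had 129 PDCD4 and 80 IgG cDNAs and a log2 ratio of 0.11 (-0.29 to 0.51).

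Of the 5 enzymes that process lamin tails, 3 reached 20 cDNAs. ICMT, the methyltransferase of prenylated proteins, had 29 PDCD4 and 3 IgG cDNAs and a log2 ratio of 2.34 (0.83 to 3.84). ZMPSTE24, the protease that matures prelamin A, had 3 PDCD4 and 21 IgG cDNAs and a ratio of -3.03 (-4.56 to -1.49). FNTA, a farnesyltransferase subunit with the largest sum of this list, had 31 and 18 cDNAs and a ratio of 0.18. One enzyme was thus over 1, 1 under -1 and 1 between.

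The genes most like VIM were sought by their shares of the 2 lists alone, as the distance between log2 shares, among 1794 genes with at least 100 cDNAs over both. The nearest were CH507-513H4.1, with 471 PDCD4 and 11 IgG cDNAs, CH507-528H12.1 (301 and 21), SYT8, a synaptotagmin (274 and 19), PTRF, a coat protein of caveolae (287 and 25), and HSPD1, the mitochondrial chaperonin (239 and 9). CH507-513H4.1 was the closest, with a log2 ratio of 4.73 (3.90 to 5.56). Likeness over 2 values is a description of the sums.

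The cell type on the labels was checked against marker genes. All 10 markers of breast epithelium had PDCD4 sites, with 1576 cDNAs in sum, but unevenly. Of the 14416 genes with a site in either list, 12932 had a PDCD4 site. IgG sites were listed for 9 of the 10 markers, with 520 cDNAs, so the count of listed markers says little about the cell type. ITGB4, an integrin of hemidesmosomes, had 439 PDCD4 and 118 IgG cDNAs, LAMB3, a laminin chain, had 401 and 122, and the keratin gene KRT5 had 352 and 74. By contrast, the keratin gene KRT14 had 3 PDCD4 cDNAs at 1 site and none listed for IgG, and SFN, an epithelial 14-3-3 protein, had 1 PDCD4 and 19 IgG cDNAs. Of 7 fibroblast markers, DCN alone was listed, with 2 cDNAs in each list, and COL1A1, COL1A2, COL3A1, PDGFRA, PDGFRB and LUM were not. None of 4 blood cell markers was listed. A gene without a listed site is not shown to be absent, and the part of other cells in the VIM counts was not tested.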

How the data were processed

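iCLIP was measured in 4 samples of MCF10A cells, 2 with PDCD4 antibody and 2 with IgG. The authors used iCount with the genome of Ensembl release 88 (GRCh38) and deposited, for each antibody, 1 list of crosslink sites with merged replicates. The deposited scores are raw counts of cDNAs per 1-nt site, not normalised. The filter on scores greater than 5 in the methods is not applied to the lists and was not applied here. The authors' differential binding test (DESeq2) needs values per replicate and could not be run. The PDCD4 list sums to 409308 cDNAs and the IgG list to 276139, and intervals (Poisson, Wilson for shares, normal for log2 ratios) cover counting error only. No column lacked a sample.

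Scores were summed per gene and divided by the list total, and 1 cDNA was added to each sum for ratios. Genes whose scores summed to 20 or more were counted as over or under a log2 ratio of 1. Sites were placed on the canonical transcript of GENCODE release 44, and 99.5% of gene identifiers were known to it. Proteins translated from these transcripts were aligned with MAFFT 7.526. Sequences of LMNA sites are not reported here. Named genes were the 4 members, from each list of related genes (not of cell type markers) the gene with the largest sum and those past a log2 ratio of 1 either way, the 5 genes nearest to VIM among those with at least 100 cDNAs, and in each member the 3 highest sites and the IgG sites of VIM. The epithelial markers, DCN, SYNM and BFSP1 were named after their values were seen. Members and lists were chosen with earlier results of these data known. Statistics were tested on simulated data. Python 3.11.15, numpy 2.4.6, pandas 2.3.3, scipy 1.17.1, Biopython 1.88 and matplotlib 3.10.9 were used. Alternatives were thresholds on scores, numbers of sites, 5 added cDNAs, other totals, removal of shared or highest sites, other windows and the choice of transcript.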

Additional observations from a re-analysis of the deposited data

How the results depend on the processing

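Of 92 values under alternatives for 19 results, 73 stayed within the interval of the main value (counts of genes within 1.5 times), and 19 moved. No log2 ratio of a member changed sign, and those of VIM and LMNA stayed over 1. That of LMNB2, 0.90, passed 1 by number of sites (1.13) and without positions in both lists (1.01). With scores greater than 5 the log2 ratio was 5.88 in VIM, 1.85 in LMNA (-1.08 to 4.78) and 3.04 in LMNB2. These genes had no IgG cDNA left, so that the ratios rest on the 1 added cDNA. With scores greater than 2 the log2 ratio was 2.0 in LMNA and 0.51 in LMNB2. With scores greater than 5 the coding share was 90.8% in VIM and 100% in LMNA, on 2 sites. The share in the first 50% of codons became 53.8% in LMNA and 100% in LMNB2, the rod share of VIM 79.2%, and the LMNA share in the last 60 nt of exons 0%. LMNB1 has no such site and gave no value. By number of sites, the coding share of VIM was 66.1%. A window of 75 nt before exon ends held 8.46% of exonic cDNAs in VIM and 9.09% in LMNA, so the empty stretch of VIM ends between 60 and 75 nt. Leaving out VIM exon 7, chosen after seeing the data, gave 52.6% in the first 50% of codons and 53.0% in the rod. The interval of the rod share then included the share of coding length, 58.1%, which counts the last 60 nt of exons. The count of 1197 genes over a log2 ratio of 1 became 1807 at a minimum of 10 cDNAs (18.8% of genes), 540 at 50 (13.6%), 80 with scores greater than 5 (51%) and 488 by number of sites (12.2%). All of these but the first test fewer genes. With scores greater than 5 the median log2 ratio of all genes was 1.33, and 70.8% of genes past the fold were higher in PDCD4, against 50.5% in the main count. With 5 cDNAs added this share was 44%.

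No paired analysis was possible because the lists merge the replicates. No replicate was left out for the same reason, and agreement between replicates is unknown. Depth limits LMNB1 most, with 8 coding cDNAs.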
